A study of Mus musculus with 42 samples.

Results

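Skil, Ski, Smad3, Smad7, Tgfb1, Tgfbr1, Tgfbr2, Tgif1, Bcor and Bcl6 were followed in bone-marrow-derived macrophages (BMDM). The cells were at rest, with the fatty acid palmitate or with bacterial lipopolysaccharide (LPS). The genes are a ligand, 2 receptors, Smads and Smad corepressors of the TGF-beta pathway, listed with the repressor Bcl6 and its corepressor Bcor. They were 10 of the 37310 gene identifiers of the count table, each matched by its symbol to 1 identifier. The genes were chosen by measured values of these same libraries, in particular by their time course in the Control libraries at 0, 2 and 24 h. Their Control time course is therefore a description with no test. Other comparisons that use Control libraries were tested, and share their libraries with that choice. All 10 passed the filter on low counts.

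The libraries were total RNA from BMDM of mice that carry a WT or a KO label for Irf5, 3 libraries for each of 14 groups. Each label had an untreated Control (0, 2 and 24 h), palmitate (2 and 24 h) and LPS (2 and 24 h). Per the study's methods, the KO mice carried floxed Irf5 alleles (IRF5 flox/flox, C57BL/6-Irf5tm1Ppr/J) and a Cre driven by the myeloid Lyz2 locus (LysM-Cre, B6.129P2-Lyz2tm1(cre)Ifo/J), so deletion depends on a promoter active in myeloid cells. Whether the WT mice carried floxed alleles or the Cre, and whether a library is 1 mouse or a pool, is not given in the sources used here, and p-values measure only the spread between these libraries, which may be technical. In all groups the marrow cells had been differentiated in medium conditioned by L929 cells.

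TGF-beta ligands bind a pair of serine/threonine kinase receptors, which phosphorylate Smad2 and Smad3. These enter the nucleus with Smad4 and switch target genes on or off, and several targets feed back on the pathway. In macrophages TGF-beta is known as a brake on inflammatory activation, and LPS, sensed through Tlr4, as a strong activator.

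Total counts per library lay between 2848793 and 7743442, and 3 counts stood for 0.387 to 1.05 CPM (the count scaled to a common library size), below the lowest level of any of the 10 genes (8.69 CPM, Smad7). No pair of replicates agreed within sampling noise. Irf5 was not lower in KO-labelled libraries: it was 210 to 389 CPM over the 21 libraries labelled WT and 267 to 430 CPM over the 21 labelled KO. In 6 of 7 conditions it was higher in every KO-labelled library than in every WT-labelled one, and it was called higher in 4. The table counts reads over whole genes, so the loss of part of the gene and a wrong label cannot be told apart. The label is therefore not borne out by Irf5 in these data, "labelled KO" is used throughout, and every direction between KO and WT rests on the label alone. The defining macrophage markers Csf1r (1622 to 2575 CPM), Adgre1 and Cd68 were high in every library, and the T and NK cell and erythroid marker sums were at most 1.90 and 0.369 CPM. The granulocyte precursor sum was higher in KO-labelled libraries than in WT-labelled ones without overlap in every condition. Marker sums of other cell types that moved with a label or with LPS are given beside some of those comparisons, not all. In bulk RNA, fewer cells of a type and less RNA per cell cannot be told apart.

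For their length, the 10 genes ranged from near the middle of the genes tested to near the top. Tgfb1, the ligand (chr7:25687002-25705077, forward strand, mm10), had the highest median over 42 libraries, 65.9 CPM per kb of exon. The corepressor Ski (chr4:155154075-155222592, reverse) followed with 39.3 CPM per kb, then Tgfbr1, the type I receptor (chr4:47353222-47414931, forward), with 35.7 CPM per kb. The Ski paralogue Skil, or SnoN (chr3:31095058-31122577, forward), had 34.03 CPM per kb, and Tgfbr2, the type II receptor (chr9:116084293-116175360, reverse), 29.98 CPM per kb. The transcriptional repressor Bcl6 (chr16:23965052-23988852, reverse) had 17.8 CPM per kb and the homeobox corepressor Tgif1 (chr17:70844205-70853546, reverse) 12.8 CPM per kb. The signalling Smad3 (chr9:63646767-63757994, reverse) had 7.81, the BCL6 corepressor Bcor (chrX:12036740-12160355, reverse) 6.72 and the inhibitory Smad7 5.42 CPM per kb. Smad7, last in this order, was above 52.1% of the genes tested, Bcor above 57.9% and Smad3 above 62.4%, while Tgfb1 was above 95.6%. No other annotated gene overlapped these genes except Gm37419, on the strand opposite to Bcl6 with 21 exonic bases shared, which had no row in the table.

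Promoter sequences came from RefSeq (GRCm38.p6), which held 15 windows for 8 of the 10 genes and none for Skil or Smad7. Each window spans 250 bases before to 50 after a start. The stretches before the first starts of Bcor, Tgif1 and Tgfbr1 are shown as examples. The levels of these genes were higher at 2 h than at 0 h in the Control libraries, and those of Bcor and Tgfbr1 also separated with LPS. Ski and Smad3 also rose from 0 to 2 h and are not shown. Of the genes with a window, only Bcor and Tgif1 had a match before the first start. Capitals mark a match to one of the 4 motifs searched on both strands. These were CAGACA and the palindrome GTCTAGAC (bound by Smads), TGANTCA (AP-1) and GAAANNGAA (the core bound by interferon regulatory factors). Bcor lies at chrX:12160356-12160605 (reverse strand), Tgif1 at chr17:70853547-70853782 (reverse) and Tgfbr1 at chr4:47352972-47353221 (forward).
Bcor: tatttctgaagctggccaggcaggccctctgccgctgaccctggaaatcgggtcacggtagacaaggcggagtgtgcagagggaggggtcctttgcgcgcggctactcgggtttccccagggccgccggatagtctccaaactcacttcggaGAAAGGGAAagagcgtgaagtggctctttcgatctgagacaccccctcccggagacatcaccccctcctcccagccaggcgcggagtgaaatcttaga
Tgif1: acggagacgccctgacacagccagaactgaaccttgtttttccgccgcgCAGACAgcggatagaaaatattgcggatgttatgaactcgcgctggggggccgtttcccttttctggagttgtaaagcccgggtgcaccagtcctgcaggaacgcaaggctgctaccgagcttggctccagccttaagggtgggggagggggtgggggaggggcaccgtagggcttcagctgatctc
Tgfbr1: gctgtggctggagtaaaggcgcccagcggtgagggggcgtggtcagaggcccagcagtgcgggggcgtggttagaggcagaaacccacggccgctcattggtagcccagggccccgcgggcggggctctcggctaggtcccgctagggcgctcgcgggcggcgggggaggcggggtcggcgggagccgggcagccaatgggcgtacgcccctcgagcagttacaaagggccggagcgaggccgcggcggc
The Bcor stretch held 1 GAAANNGAA, 98 to 90 bases before the start at the annotated gene end. Of all 32851 windows, 7.13% held that motif in the 250 bases before the start and 8.56% in the full window. The Tgif1 stretch, of 236 bases, held 1 CAGACA, a motif found in 17.1% of all windows before the start and in 21% of full windows. The Tgfbr1 stretch held none of the 4. A further CAGACA each lay before an internal start of Tgif1 and of Tgfbr1. The Ski, Smad3, Tgfb1, Tgfbr2 and Bcl6 windows held none. TGANTCA occurred in 7.81% and GTCTAGAC in 0.213% of all windows, and in none of the 15. A match is a string of letters, not a measured binding site.

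**Figure D1:**
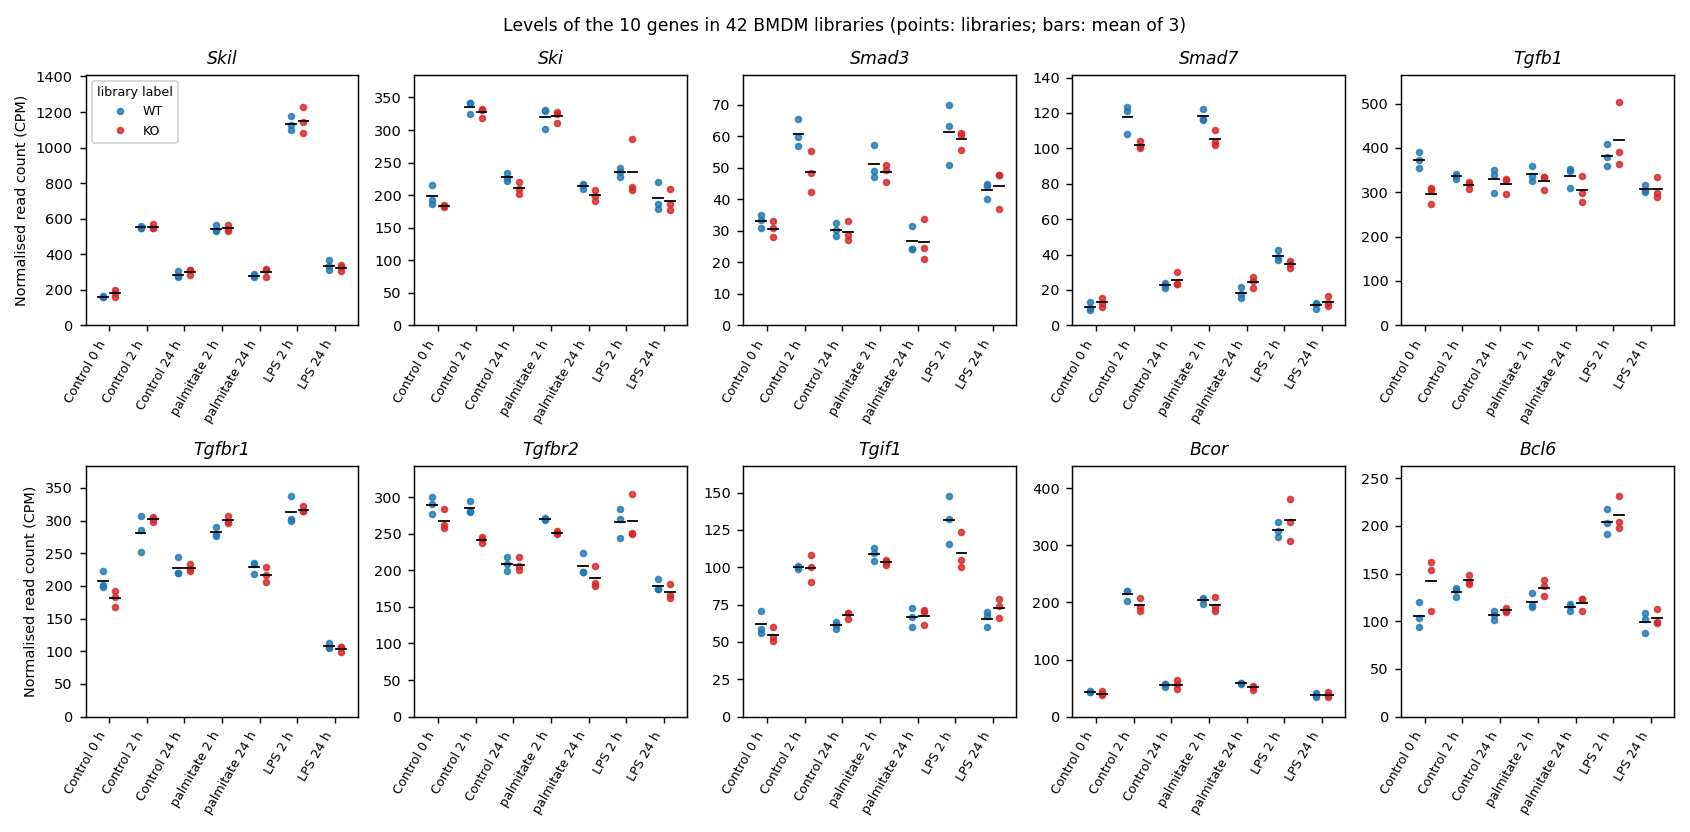
Normalised read count (CPM, linear axes from 0) of each gene in the 7 conditions. Points are libraries, blue labelled WT and red labelled KO, and bars are means of 3. Skil stood at 1083 to 1229 CPM in the 6 LPS 2 h libraries, above every other library, while Smad7 was highest with Control and palmitate at 2 h.

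In the Control time course, with no stimulus added, the feedback genes stood highest at 2 h. Smad7, which blocks receptor signalling, was at 8.69, 9.63 and 13.1 CPM in WT-labelled libraries and 10.6, 12.5 and 15.7 CPM in KO-labelled ones at 0 h. At 2 h it was 123, 121 and 108 CPM (WT) and 102, 104 and 100 CPM (KO). At 24 h it was 21.1, 22.6 and 23.9 CPM (WT) and 30.05, 23.3 and 23.4 CPM (KO). The 3 times did not overlap, and the log2 fold change was 3.22 (SE 0.09) from 0 to 2 h and -2.19 (SE 0.08) from 2 to 24 h. 

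Bcor and Skil followed the same course. Bcor ran from 37.7 to 45.1 CPM at 0 h over the 6 libraries (median 43.2 CPM), from 185 to 220 CPM at 2 h (median 205 CPM) and from 47.9 to 63.8 CPM at 24 h (median 56.6 CPM). Skil ran from 158 to 200 CPM at 0 h (median 163 CPM), 545 to 573 CPM at 2 h (median 548 CPM) and 271 to 310 CPM at 24 h (median 294 CPM). From 0 to 2 h the log2 fold change was 2.27 (SE 0.06) for Bcor and 1.70 (SE 0.05) for Skil. Neither gene had returned to its level at 0 h by 24 h, with log2 fold changes of 0.40 (SE 0.07) and 0.78 (SE 0.05) and no overlap between libraries. Smad7 at 24 h was also still 1.03 (SE 0.11) above 0 h on the log2 scale.

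The other genes moved less. The log2 fold change from 0 to 2 h was 0.80 (SE 0.05) for Ski, 0.78 (SE 0.07) for Tgif1, 0.77 (SE 0.09) for Smad3 and 0.59 (SE 0.05) for Tgfbr1, with no overlap between the 6 libraries of each time. At 24 h the ranges of these 4 genes overlapped those at 0 h. Tgfb1 stayed near its level, at 274 to 390 CPM at 0 h, 308 to 341 CPM at 2 h and 295 to 349 CPM at 24 h. Tgfbr2 was the one gene lower at 24 h than at 0 h without overlap, 199 to 219 CPM against 257 to 300 CPM (log2 fold change -0.42, SE 0.05). Bcl6 overlapped between 0 and 2 h and was lower at 24 h than at 2 h. The genes' median log2 fold change from 0 to 2 h was 0.77, beside -0.01 over all 11624 genes tested, a value set by the choice of genes.

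**Figure D2:**
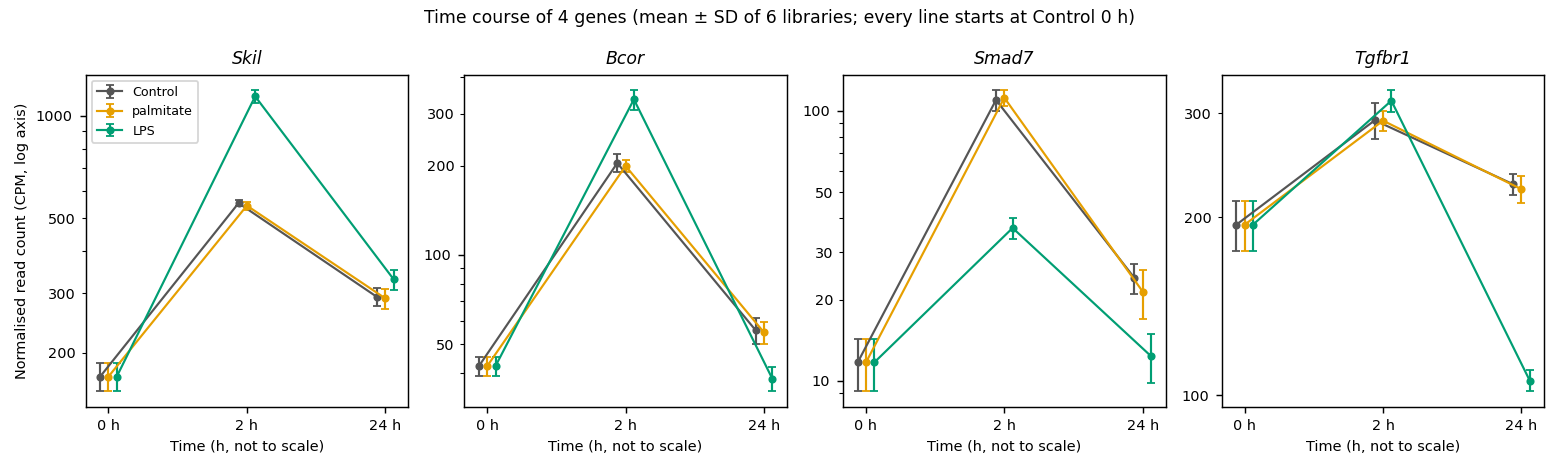
Mean ± SD of 6 libraries (CPM, log axis) of Skil, Bcor, Smad7 and Tgfbr1 at 0, 2 and 24 h with Control, palmitate or LPS. All lines start from Control 0 h, and the Control and palmitate lines run together. LPS raises Skil and Bcor above them at 2 h, keeps Smad7 below them, and takes Tgfbr1 to 106 CPM at 24 h.

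Palmitate left the 10 genes at their Control levels within the error. None was called at 2 h or at 24 h at an adjusted p under 0.05 (edgeR's quasi-likelihood test with Benjamini-Hochberg adjustment), beside 0.542% and 2.57% of all genes tested. The number at an unadjusted p under 0.05 was also 0 at both times, and DESeq2 called 0. Smad7 averaged 112 ± 8.03 CPM with palmitate and 110 ± 9.95 CPM with Control at 2 h (SD, n = 6), and Skil 544 ± 15.1 CPM and 553 ± 10.7 CPM. The ranges of the 6 palmitate and 6 Control libraries overlapped for all 10 genes at both times. The share of all genes was counted neither for this overlap nor at the unadjusted threshold. The 95% intervals of the log2 fold changes lay between -0.30 (Smad3) and 0.21 (Tgif1) at 2 h, and between -0.38 (Smad3) and 0.24 (Bcl6) at 24 h. The comparison uses the Control libraries that chose the genes, so its calls and p-values for these genes are given as a description.

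LPS split the genes at 2 h. LPS was compared first with palmitate, which uses no Control library. This comparison is not free of the choice of genes, since palmitate levels lay at those of Control. The genes were also chosen with results of all groups known, so the palmitate and LPS libraries may have had a part in the choice too. The p-values of the 10 genes for LPS against palmitate, here and at 24 h, are therefore given as a description. Of the 10 genes 8 were called, 6 higher and 2 lower, beside 35% of all genes tested. Their median log2 fold change was 0.22, beside -0.02 over all genes.

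The corepressors Skil and Bcor and the repressor Bcl6 were higher with LPS. Skil was at 1125, 1099 and 1176 CPM (WT) and 1229, 1144 and 1083 CPM (KO) with LPS, and between 528 and 563 CPM with palmitate. Every LPS library lay above every palmitate library (log2 fold change 1.07, SE 0.05, adjusted p = 5.22e-26). Bcor ran from 308 to 382 CPM (median 333 CPM) with LPS against 186 to 209 CPM (log2 fold change 0.74, SE 0.05, adjusted p = 6.03e-17). Bcl6 ran from 191 to 232 CPM (median 204 CPM) against 115 to 143 CPM (log2 fold change 0.70, SE 0.06, adjusted p = 4.89e-13). Neither gene overlapped between the treatments.

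Smad7 and Ski went the other way. Smad7 was at 38.6, 36.8 and 42.3 CPM (WT) and 32.3, 34.8 and 36.1 CPM (KO) with LPS, against 102 to 122 CPM with palmitate. On the log2 scale the difference was -1.60 (SE 0.08, adjusted p = 1.27e-22), although the LPS libraries still stood above the 8.69 to 15.7 CPM of Control 0 h. Ski was at 242, 228 and 235 CPM (WT) and 286, 213 and 208 CPM (KO) with LPS, against 301 to 330 CPM with palmitate (log2 fold change -0.45, SE 0.05, adjusted p = 9.09e-10). The 286 CPM belonged to the shallowest library, labelled KO with LPS at 2 h, and without it the log2 fold change of Ski was -0.54 (adjusted p = 2.32e-13). The paralogues Skil and Ski thus differed from palmitate in opposite directions at 2 h. Over time Ski did not fall with LPS: its mean was 235 CPM with LPS at 2 h and 191 CPM at Control 0 h, with overlapping libraries.

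The remaining calls at 2 h were small. Tgfb1 was higher with LPS, 360 to 503 CPM against 306 to 359 CPM (log2 fold change 0.26, SE 0.06, adjusted p = 0.000163). The 503 CPM came from that same shallow library, and without it the log2 fold change was 0.18 (adjusted p = 0.00411). Smad3 rose by 0.28 (SE 0.09, adjusted p = 0.00989), a call that ended without WT LPS 2 h library 2 (adjusted p = 0.0644). Tgif1 rose by 0.17 (SE 0.06, adjusted p = 0.0309) with overlapping libraries. Leaving out any 1 of 8 of the 12 libraries ended that call (adjusted p 0.0562 to 0.159): WT LPS 2 h libraries 1 and 3, KO LPS 2 h library 1, WT palmitate 2 h libraries 2 and 3 and the 3 of KO palmitate 2 h. The receptors did not pass the test, with log2 fold changes of 0.11 (SE 0.05, adjusted p = 0.0516) for Tgfbr1 and 0.03 (SE 0.05) for Tgfbr2. DESeq2 called Tgfbr1 (adjusted p = 0.0387), and it also passed without WT LPS 2 h library 3 (adjusted p = 0.039). In each label alone, 3 against 3 libraries, some of these calls ended. Smad3 passed in neither label, Tgfb1 not in WT-labelled libraries and Tgif1 not in KO-labelled ones.

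**Figure D3:**
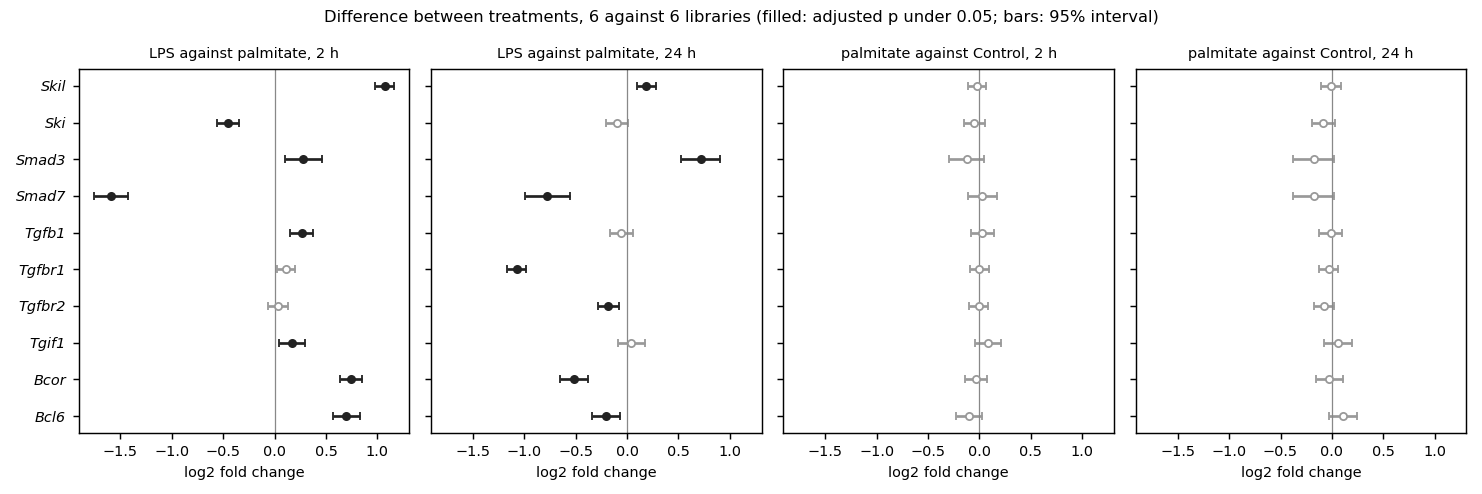
Log2 fold changes of the 10 genes between treatments, 6 against 6 libraries averaged over the WT and KO labels, with 95% intervals. Filled points passed an adjusted p under 0.05. Smad7 lies at -1.60 and Skil at 1.07 for LPS against palmitate at 2 h, Tgfbr1 at -1.08 at 24 h, and no point is filled for palmitate against Control.

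Against Control, whose libraries the choice of genes used, LPS at 2 h gave 5 genes higher and 2 lower, beside 34.2% of all genes called. Calls and p-values of the chosen genes are therefore given as a description here too. The log2 fold changes were 1.05 (SE 0.05) for Skil, 0.71 (SE 0.05) for Bcor, 0.60 (SE 0.06) for Bcl6, 0.29 (SE 0.06) for Tgfb1, 0.26 (SE 0.06) for Tgif1, -0.50 (SE 0.05) for Ski and -1.57 (SE 0.08) for Smad7. The effect was of similar size in each label for the leading genes, 1.04 (SE 0.06) and 1.05 (SE 0.06) for Skil and -1.57 (SE 0.11) and -1.56 (SE 0.12) for Smad7 in WT-labelled libraries and KO. Tgif1 passed in WT-labelled libraries alone (0.39, SE 0.09) and not in KO-labelled ones alone (0.13, SE 0.09), and Tgfb1 passed only in KO-labelled ones, but for neither gene did the difference between labels pass its own test (adjusted p = 0.705 and 0.722). Tgfbr1 did not pass, but DESeq2 called it (adjusted p = 0.0488), and it passed when WT LPS 2 h library 3 or WT Control 2 h library 3 was left out (adjusted p = 0.0454 and 0.0229). The sum of 7 granulocyte precursor markers was 45.4 to 65.9 CPM with LPS and 19.3 to 32.9 CPM with Control at 2 h in WT-labelled libraries. In KO-labelled ones it overlapped, 118 to 203 CPM and 64.5 to 125 CPM. Its part in these calls was not tested.

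At 24 h the receptors fell with LPS. Of the 10 genes 7 were called against palmitate, 2 higher and 5 lower, beside 51.8% of all genes tested. Their median log2 fold change was -0.14, beside -0.01 over all genes. Tgfbr1 was at 106, 113 and 104 CPM (WT) and 106, 107 and 99.1 CPM (KO) with LPS, and between 206 and 235 CPM with palmitate. No library overlapped, and the log2 difference was -1.08 (SE 0.05, adjusted p = 2.17e-25). LPS at 24 h was the lowest of the 7 conditions for Tgfbr1, below the 168 to 223 CPM of Control 0 h. Tgfbr2 fell by 0.18 on the log2 scale (SE 0.05, adjusted p = 0.00156), with 161 to 188 CPM against 178 to 223 CPM, which overlap, and did not pass in KO-labelled libraries alone (-0.16, SE 0.07, adjusted p = 0.0679).

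Other markers moved with LPS at 24 h. The summed level of 7 granulocyte precursor markers was 30.6 to 33.03 CPM with LPS and 61.1 to 83.7 CPM with palmitate in WT-labelled libraries, and 42.05 to 63.1 CPM and 106 to 161 CPM in KO-labelled ones. With Control at 24 h it was 50.8 to 61.02 CPM (WT) and 127 to 198 CPM (KO), so the LPS libraries lay lowest within each label. The sum of 6 macrophage markers was 7690.5 to 8747 CPM (WT) and 7683 to 7949.9 CPM (KO) with LPS, against 5149 to 5371 CPM and 4919 to 5201 CPM with palmitate. The sum of 4 megakaryocyte or platelet markers was lower with LPS without overlap in WT-labelled libraries, 9.76 to 10.6 CPM against 12.97 to 17.5 CPM, and overlapped in KO-labelled ones. Their part in the calls at 24 h was not tested.

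Smad3 was higher at 24 h with LPS while Smad7 stayed lower. Smad3 was at 44.2, 40.05 and 44.9 CPM (WT) and 36.98, 47.8 and 47.7 CPM (KO) with LPS, and between 20.9 and 33.9 CPM with palmitate, with no overlap (log2 fold change 0.72, SE 0.09, adjusted p = 5.1e-09). Smad7 ran from 9.27 to 16.8 CPM with LPS against 15.5 to 27.3 CPM (log2 fold change -0.77, SE 0.11, adjusted p = 1.87e-08), levels that overlap those of Control 0 h. Of the repressors, Bcor was lower, 34.1 to 43.3 CPM against 47.2 to 59.4 CPM (log2 fold change -0.51, SE 0.07, adjusted p = 7.51e-09), and Bcl6 fell by 0.21 on the log2 scale (SE 0.07, adjusted p = 0.00756) with overlap. Skil was slightly higher (0.19, SE 0.05, adjusted p = 0.00066). In each label alone Bcl6 did not pass (adjusted p = 0.0716 and 0.0792), and in KO-labelled libraries alone Skil did not (0.11, adjusted p = 0.194). Tgfb1, Tgif1 and Ski did not pass, with log2 fold changes of -0.06 (SE 0.06), 0.04 (SE 0.07) and -0.10 (SE 0.05), and Ski passed when WT LPS 24 h library 2 or KO LPS 24 h library 2 was left out (adjusted p = 0.0208 and 0.0478).

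Against Control at 24 h, whose libraries the choice of genes used, LPS gave 2 genes higher and 5 lower, beside 52.1% of all genes called. Calls and p-values of the chosen genes in this comparison are therefore given as a description. Tgfbr1 had a log2 fold change of -1.10 (SE 0.05), Smad7 of -0.95 (SE 0.11), Bcor of -0.54 (SE 0.07), Tgfbr2 of -0.26 (SE 0.05), Ski of -0.18 (SE 0.05), Skil of 0.18 (SE 0.05) and Smad3 of 0.54 (SE 0.09). The Tgfbr1 effect was -1.08 (SE 0.07) in WT-labelled libraries and -1.13 (SE 0.07) in KO-labelled ones. Skil and Ski passed in WT-labelled libraries alone (0.25, SE 0.07, and -0.22, SE 0.08) and not in KO-labelled ones alone (0.10, SE 0.07, adjusted p = 0.227, and -0.14, SE 0.08, adjusted p = 0.151). For neither gene did the difference between labels pass its own test (adjusted p = 0.959 and 0.983). These comparisons and those with palmitate share their LPS libraries.

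The difference between LPS and palmitate changed from 2 to 24 h for most of the genes. The change was called for 9 of the 10, all but Tgif1, beside 47.3% of all genes tested. It was -1.26 (SE 0.09) on the log2 scale for Bcor, -1.19 (SE 0.07) for Tgfbr1, -0.90 (SE 0.09) for Bcl6 and -0.88 (SE 0.07) for Skil, so LPS favoured these genes less at 24 h than at 2 h. For Smad7 it was 0.82 (SE 0.14), for Smad3 0.44 (SE 0.13) and for Ski 0.36 (SE 0.08). For Tgfb1 it was -0.32 and for Tgfbr2 -0.21, and that of Tgfbr2 passed in neither label alone (adjusted p = 0.135 in WT-labelled libraries and 0.052 in KO-labelled ones), nor that of Smad3 in WT-labelled ones (adjusted p = 0.0818). Bcor and Bcl6 changed sides, higher than with palmitate at 2 h and lower at 24 h.

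Within LPS, all 10 genes were lower at 24 h than at 2 h, beside 60.5% of all genes called and 29.9% called lower. Bcor fell by 3.13 on the log2 scale (SE 0.06, adjusted p = 3.46e-40), from 308 to 382 CPM down to 34.1 to 43.3 CPM. Skil fell by 1.79 (SE 0.05), Smad7 fell by 1.58 (SE 0.10), Tgfbr1 fell by 1.57 (SE 0.05) and Bcl6 fell by 1.03 (SE 0.07). The other 5 fell by 0.28 (Ski, the one gene whose libraries overlapped) to 0.79 (Tgif1). Within palmitate, 8 were lower at 24 h, beside 19.6% of all genes called and 10.8% called lower. Smad7 fell by 2.40 (SE 0.08, adjusted p = 9.55e-28) and Bcor by 1.87 (SE 0.06, adjusted p = 2.42e-29), and Tgfb1 (-0.05, SE 0.06) and Bcl6 (-0.12, SE 0.07) did not pass. The genes' median log2 fold change was -0.91 within LPS and -0.65 within palmitate, beside 0.02 and 0.00447 over all genes. Neither comparison used a Control library, but all 10 genes also had a log2 fold change below 0 from Control 2 to 24 h. That Control course had a part in the choice, and palmitate levels lay at those of Control. The shares of all genes are therefore no fair yardstick for these 2 counts, and the p-values of the 10 genes in both comparisons are given as a description. The granulocyte precursor sum was 45.4 to 65.9 CPM (WT) and 118 to 203 CPM (KO) with LPS at 2 h, above the sums with LPS at 24 h in each label, and its part in these calls was not tested.

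The wider pathway was a list of 78 other genes, of which 65 were tested. With LPS against palmitate at 2 h, 20 were higher and 11 lower, beside 19.2% and 15.7% of all genes tested. The 2 leading genes upward were Junb, an AP-1 subunit (log2 fold change 1.91, SE 0.06), and Cdkn1a, the cell cycle inhibitor p21 (2.12, SE 0.06). The 2 downward were Klf10, a TGF-beta-induced repressor (-1.22, SE 0.08), and Id1, an inhibitor of DNA binding (-2.90, SE 0.21). Of the 15 feedback inhibitors and ubiquitin ligases 4 were higher and 3 lower. At 24 h, 14 of the 65 were higher and 23 lower, beside 25.4% and 26.4% of all genes. Tgfbi, a matrix protein named for its induction by TGF-beta, led upward with a log2 fold change of 2.14 (SE 0.07), at 821 ± 103 CPM (WT) and 822 ± 21.8 CPM (KO) with LPS against 182 ± 10.4 and 190 ± 20.1 CPM with palmitate (SD, n = 3). Cdkn1a was also higher (0.97, SE 0.07). Itgav, the integrin subunit that frees latent TGF-beta, fell by 0.97 on the log2 scale (SE 0.05), and Nedd4l, a ubiquitin ligase acting on Smads, fell by 1.40 (SE 0.08). The adjusted p of each of these named genes was at most 1.08e-16.

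Against Control, LPS gave 17 of the 65 higher and 11 lower at 2 h, beside 19% and 15.2% of all genes. At 24 h it gave 10 higher and 26 lower, beside 25.6% and 26.5%, and Id3 fell by 2.55 (SE 0.14) and Id2 by 1.13 (SE 0.06), both inhibitors of DNA binding that TGF-beta and BMP signals control. Within LPS 35 of the 65 were lower at 24 h and 10 higher, beside 29.9% and 30.5% of all genes. Within palmitate 26 were lower and 8 higher, beside 10.8% and 8.83%. The wider list's median log2 fold change was -0.44 within LPS and -0.15 within palmitate. Palmitate against Control called 2 of the 65 lower and 0 higher at 2 h, beside 0.31% and 0.232% of all genes. The 2 were Tgfbi (-0.37, SE 0.07) and the TGF-beta activator Thbs1 (-0.48, SE 0.11). At 24 h it called 3 higher and 0 lower, beside 1.62% and 0.955%, among them Klf10 (0.46, SE 0.08) and Itgav (0.24, SE 0.05).

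**Figure D4:**
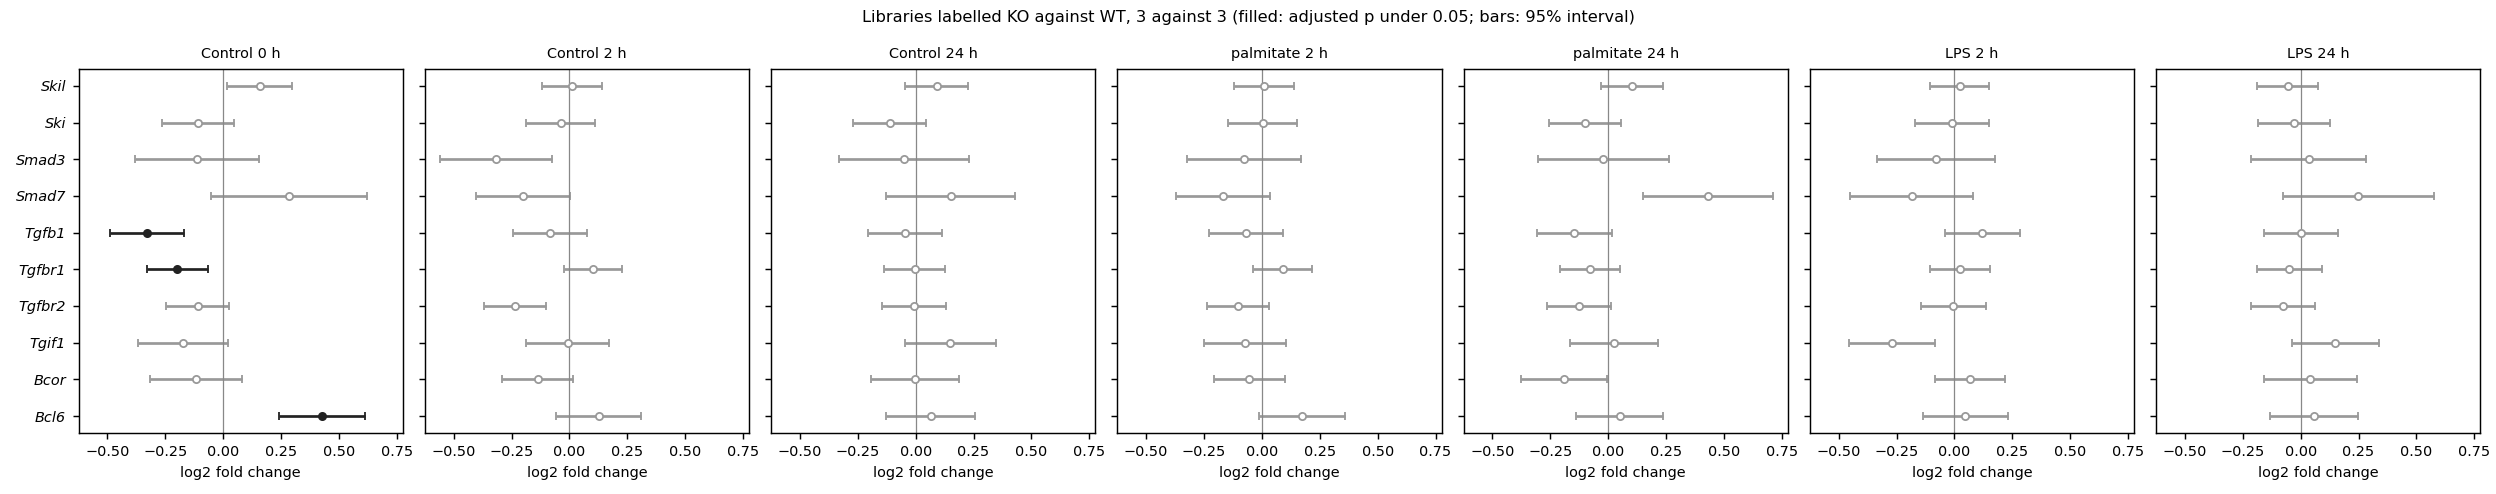
Log2 fold changes of KO-labelled libraries against WT-labelled libraries in each of the 7 conditions, 3 against 3 libraries, with 95% intervals. Filled points passed an adjusted p under 0.05. The filled points are Tgfb1, Tgfbr1 and Bcl6 at Control 0 h, and most intervals in the other conditions include 0. The Control libraries also chose the genes.

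Between the labels, the genes differed at Control 0 h only in part. Of the 10, 3 were called, 1 higher and 2 lower, beside 12.5% of all genes tested. The comparison uses Control libraries that chose the genes, so its p-values are given as a description. Tgfb1 was at 390, 372 and 355 CPM in WT-labelled libraries and 274, 310 and 306 CPM in KO-labelled ones, with no overlap (log2 fold change -0.33, SE 0.08, adjusted p = 0.00396). The call ended without KO Control 0 h library 1 (adjusted p = 0.0585). Tgfbr1 was at 198, 223 and 202 CPM against 182, 192 and 168 CPM (log2 fold change -0.20, SE 0.07, adjusted p = 0.0366), and leaving out any 1 of 4 of the 6 libraries (KO libraries 1 and 3, WT libraries 2 and 3) ended this call, with adjusted p from 0.053 to 0.271. Bcl6 was at 121, 103 and 94.1 CPM against 153, 111 and 162 CPM (log2 fold change 0.43, SE 0.09, adjusted p = 0.00129), and KO library 2 lay inside the WT range. Without that library Skil also passed (0.25, adjusted p = 0.0186).

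Other markers moved with the label at 0 h. The summed level of 7 fibroblast markers was 42.98 to 80.1 CPM in KO-labelled libraries and 0.661 to 1.09 CPM in WT-labelled ones, and Dcn and Lum were at 0 in 36 and 41 of the 42 libraries. The summed level of 7 granulocyte precursor markers was 72.9 to 81.3 CPM against 47.2 to 54.4 CPM, that of 4 megakaryocyte or platelet markers 19.8 to 33.4 CPM against 6.79 to 19.4 CPM, and that of 5 B cell markers 3.6 to 7.26 CPM against 8.2 to 12.8 CPM. Their part in the 3 calls was not tested. Of the wider list 9 of 65 were higher and 5 lower at 0 h, beside 6.4% and 6.06% of all genes. Hipk2, a kinase that binds corepressors, was among the higher genes (log2 fold change 0.61, SE 0.09), and Cdkn1a (-0.80, SE 0.10) and Id2 (-0.45, SE 0.09) led the lower ones.

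In the other 6 conditions none of the 10 genes was called between the labels. Those at Control 2 h and 24 h again use libraries that chose the genes, so their p-values are a description. All genes tested gave 0.49% called at Control 2 h, 0.12% at Control 24 h, 0.146% at palmitate 2 h, 0.0688% at palmitate 24 h, 0.465% at LPS 2 h and 0.146% at LPS 24 h. At an unadjusted p under 0.05 the number of the 10 was 2, 0, 0, 2, 1 and 0 in that order. The share of all genes at that unadjusted threshold was not counted, so no excess can be read from these numbers. Tgfbr2 at Control 2 h came nearest, at 281, 294 and 279 CPM (WT) and 246, 237 and 242 CPM (KO) (log2 fold change -0.24, SE 0.07, adjusted p = 0.101), and DESeq2 called it (adjusted p = 0.0466), as did a fit of those 6 libraries alone (adjusted p = 0.0128). DESeq2 called no other of the 10 in these conditions. Of the wider list 2 were called at Control 2 h, both lower in KO-labelled libraries, Thbs1 (-0.63, SE 0.16, adjusted p = 0.0454) and Klf10 (-0.43, SE 0.11, adjusted p = 0.0454). At LPS 2 h 2 were called, the ligand Gdf15 (-0.86, SE 0.15, adjusted p = 0.00121) and Id2 (-0.44, SE 0.08, adjusted p = 0.00168), and the other 4 conditions gave 0 of the 65. Smad7 at palmitate 24 h was 17.6, 21.6 and 15.5 CPM (WT) against 27.3, 21.2 and 25.1 CPM (KO) (log2 fold change 0.43, SE 0.14, adjusted p = 0.4). At Control 2 h the fibroblast marker sum was 78.4 to 131 CPM in KO-labelled libraries and 1.16 to 64.5 CPM in WT-labelled ones. The granulocyte precursor sum was 64.5 to 125 CPM and 19.3 to 32.9 CPM there. At LPS 2 h it was 118 to 203 CPM (KO) and 45.4 to 65.9 CPM (WT), and at palmitate 24 h 106 to 161 CPM (KO) and 61.1 to 83.7 CPM (WT). The megakaryocyte or platelet sum at LPS 2 h was 31.8 to 41.5 CPM (KO) and 11.1 to 20.8 CPM (WT). The part of these markers in the values between the labels was not tested. For Skil the KO minus WT log2 fold changes over the 7 conditions lay between -0.06 and 0.16.

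The effect of LPS or palmitate was not called different between the labels for any of the 10. The shares of all genes called were 0% and 0.0086% for the LPS effect at 2 and 24 h, and 0% and 0% for palmitate. Of the 10, 2 had an unadjusted p under 0.05 for the LPS effect at 2 h, and 0 in the other 3. No share of all genes was counted at that unadjusted threshold. The 95% interval for the difference in the LPS effect at 2 h reached from -0.17 to 0.19 for Skil and from -0.32 to 0.35 for Smad7. The KO minus WT difference at Control 0 h was also set against its mean at Control 2 and 24 h. There 5.61% of all genes and 0 of the 10 were called. At an unadjusted p under 0.05 there were 4 of the 10, and the share of all genes at that threshold was not counted. All these comparisons use Control libraries, which chose the genes, so their p-values are given as a description. Tgfbr1 gave -0.25 (SE 0.08, adjusted p = 0.0535), Bcl6 0.33 (SE 0.11, adjusted p = 0.0773) and Tgfb1 -0.26 (SE 0.10, adjusted p = 0.106). DESeq2 called Tgfbr1 there (adjusted p = 0.0302), so whether the differences at 0 h are larger than those at later times depended on the fit.

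The genes fell into courses that resembled each other in part. Over the 14 group means of log2 CPM, Ski and Smad7 had a Pearson r of 0.97, Tgif1 and Bcor of 0.95, Skil and Tgif1 of 0.93 and Skil and Bcor of 0.91, given as a description since the means share libraries and time points. Among 11043 genes searched, the courses most like that of Skil were those of Traf3, an adaptor of immune receptors (r 0.98), Rffl, a ubiquitin ligase (r 0.98), and Rest, a transcriptional repressor (r 0.97). Top1, the topoisomerase, was nearest to Bcor (r 0.99), Gse1 to Smad7 (r 0.98), Fam129b to Tgfbr1 (r 0.98), Psap to Tgfbr2 (r 0.98), Nr4a2 to Tgif1 (r 0.98), Creb5 to Smad3 (r 0.97), Dusp4 to Bcl6 (r 0.96) and Camk2d to Tgfb1 (r 0.95). The gene nearest to Ski was Smad7.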

How the data were processed

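The 10 genes and all gene lists were chosen with earlier results of these data known. Libraries were stranded, ribodepleted total RNA (SMARTer Pico kit). The authors deposited raw counts per gene, with no normalisation, after alignment to mm10 with STAR. Per the labels, the processing notes name STAR 2.7.3a, fastp 0.19.11 and the builds mm10 and mm9. The annotation release and strand setting of the counting are not given in the sources used here. Columns name a group and no replicate, so library numbers follow column order and pair nothing.

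Of 37310 identifiers, 32620 were matched to a symbol (GENCODE, GRCm38). Counts were filtered (filterByExpr, 11624 genes kept) and scaled by TMM, and 1 model with a mean per group was fitted over 42 libraries in edgeR 4.0.16 (R 4.3.3, limma 3.58.1). Comparisons between treatments average the WT and KO labels. P-values came from the quasi-likelihood test, two-sided, with Benjamini-Hochberg adjustment across all tested genes, and calls were made under an adjusted p of 0.05. Fold changes are log2 with their SE, levels are CPM, and levels per kb divide by the union of exons. Replicates were compared by chi-square over genes averaging 10 counts or more (42 pairs, 1.93 to 9.32 per degree of freedom). The test was also run on counts simulated with 1 mean per gene, apart from changes set into KO Control 2 h for some genes. That setting lacks the broad changes with LPS or time, and its outcome is not reported here. Named genes were the 10, Irf5, at most 2 other pathway genes per direction and comparison with the smallest adjusted p and a mean of at least 1 CPM, and the genes of highest Pearson r (prior count 2); a pathway gene that this rule names is not reported here. Alternatives were RLE size factors, all genes with at least 1 count, DESeq2 1.42.0, the groups compared alone, each label alone and leaving out each library.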

Additional observations from a re-analysis of the deposited data

Results flagged for a closer look

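The log2 difference between LPS and palmitate changed between 2 and 24 h for 9 of the 10 genes, tested as the effect at 24 h minus that at 2 h in the same edgeR fit. The change was -1.26 for Bcor, -1.19 for Tgfbr1, -0.90 for Bcl6, -0.88 for Skil, -0.32 for Tgfb1 and -0.21 for Tgfbr2. It was 0.82 for Smad7, 0.44 for Smad3 and 0.36 for Ski. The adjusted p was at most 0.0089, that of Tgfbr2, and 47.3% of all genes tested passed the same test. In each label alone Tgfbr2 did not pass, and in the libraries labelled WT alone Smad3 did not. In groups of 3 libraries single libraries were not tested as outliers.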

How the results depend on the processing

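No paired analysis was possible because the columns carry no replicate numbers. Of 59 calls made for the 10 genes over 21 comparisons, RLE size factors and DESeq2 each kept 59, and testing all genes with at least 1 count or the groups compared alone kept 57, as did leaving out the 4 shallowest libraries, an alternative chosen after seeing the data. None reversed. Testing all genes with at least 1 count and the groups compared alone both lost Tgif1 for LPS against palmitate at 2 h and Tgfbr1 between the labels at Control 0 h, and leaving out the shallowest libraries lost Tgif1 for LPS at 2 h against palmitate and against Control. DESeq2 made 4 further calls, Tgfbr1 for LPS at 2 h against Control (adjusted p = 0.0488) and against palmitate (0.0387), Tgfbr2 between the labels at Control 2 h and Tgfbr1 for Control 0 h against the later Control times. TMM and RLE moved the median of all genes by at most 0.0102 (log2). Each label alone, with 3 against 3 libraries, kept 50 (WT) and 47 (KO) of 56 calls. In the libraries labelled KO alone, Skil, Tgfbr2 and Bcl6 lost their call for LPS against palmitate at 24 h. For the labels at Control 2 h, DESeq2 and the groups compared alone each called 1 gene instead of 0. For Control 0 h against the later Control times, the groups compared alone called 3, and DESeq2 and all genes with at least 1 count called 1 each, instead of 0. Leaving out each library in turn gave 1 to 4 genes called between the labels at Control 0 h (3 with all libraries), and 0 to 2 for Control 0 h against the later Control times. It gave 7 to 8 for LPS against Control at 2 h and for LPS against palmitate at 2 and 24 h, and the same count in the other 16 comparisons. The cause of these changes was not tested. Depth limits Smad7 most, with 48 counts in its lowest library.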
